A study of Mus musculus with 28 samples.

Results

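The 48 genes described here drive the cell cycle and copy the genome, and their transcript levels were followed from a polyclonal cell line to a clone and on to subclones of that clone. They were chosen by name and role, with no threshold on their values but with earlier results of these data known. Their Ensembl identifiers were found in both tables of RNA sequencing values, which hold 45706 genes each, so that the 48 members are those 48 of 45706. By role, 22 members act in mitosis, 14 in DNA replication, and 12 are E-type and D-type cyclins, transcription factors, a CDK inhibitor and a reader of hemimethylated DNA. The cells are mIMCD-3, epithelial cells of mouse kidney that were established from collecting duct cells of the renal inner medulla of a mouse carrying SV40 early-region genes, and no gene had been edited in any of them. Polyclonal WT is the parental mixture of cells, WT5 is a line grown from 1 sorted cell of it, and subclones 1 to 5 were each grown from 1 sorted cell of WT5 for about 6 weeks. WT5 and each subclone are thus 1 clone each. RNA was taken 4 days after the cultures had become fully confluent. Each of the 7 lines has 4 libraries, 28 in all. The sources describe the libraries of a line both as biological and as technical replicates, so that p-values measure only the spread between these libraries.

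In the cell cycle, D-type cyclins with the kinases CDK4 and CDK6 phosphorylate the retinoblastoma proteins, which releases E2F transcription factors and with them the genes of the S phase, among them the E-type cyclins, the MCM helicase that is loaded at origins, and the enzymes that supply nucleotides. Later, the factors B-Myb (Mybl2) and FoxM1 switch on the genes of the G2 phase and mitosis, among them cyclin B, CDK1, the Aurora and Polo-like kinases and the spindle motors. In resting cells the same promoters are held silent by complexes of retinoblastoma relatives with E2F or with MuvB, which reads a CHR element, and the factor NF-Y binds CCAAT boxes in them. The SV40 large T antigen binds the retinoblastoma proteins. In bulk RNA, fewer cells in a phase and less RNA per cell cannot be told apart.

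The promoters of the members hold these elements more often than promoters at large, and the elements sort with the members' roles. RefSeq windows from 250 bases before to 50 after a start were at hand for 38 of the 48 members, and those of Ccna2, Aurkb, Kif20a, Tpx2, Mcm4, Gmnn, Ccne2, Ccnd1, Ccnd2 and Foxm1 were not used here. On either strand, the letters TTTGAA or the variant TTCGAA (CHR) were in a window of 19 of the 38 members, where 21.7% of 27025 genes held them. The box CCAAT was found for 30 members, 78.9% against 41.1%. An E2F-type word, which is TTCCCGC or its variant TTCGCGC, or else TTGCCGC or its variant TTGGCGC, was found for 15 members, 39.5% against 10.9%. E2F-type and CCAAT letters overlapped in 3 member windows, CHR and CCAAT letters in 0. Of the 18 mitotic members with a window, 14 held CHR letters (77.8%) and 3 an E2F-type word (16.7%). Of the 13 replication members and E-type cyclins with a window, 3 held CHR letters (23.1%) and 8 an E2F-type word (61.5%). These are matches of letters and not measured binding sites.

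To show both kinds, 3 mitotic and 3 replication members whose runs hold such words are printed, and their levels moved in opposite directions between WT5 and polyclonal WT. They are not typical of all members of their roles. In runs cut the same way, Ccnb1, Ccnb2, Aurka, Plk1, Bub1, Bub1b, Ube2c, Cenpa, Cenpe, Cenpf, Birc5, Kif23 and Nusap1 held no CHR letters. Of the mitotic members with a window that are not printed, only Mki67 and Top2a held them in the run. Most mitotic runs thus held none, while the windows counted above also include bases after the start. Mcm2, Mcm3, Cdt1, Cdc45, Rrm2 and Tyms held no E2F-type word, and Mcm2 held CHR letters. Among replication members, only the 3 printed ones had a run that held an E2F-type word. Each run holds 150 bases upstream of the start, 5′ to 3′ in the direction of the gene, from RefSeq on GRCm38.p6. Runs end before the outermost GENCODE start of the gene. The 26 bases next to the RefSeq start of Cdk1 and the 9 of Cdc20 were therefore left out. Capitals mark the CHR, CCAAT and E2F-type letters on either strand. The mitotic 3, Cdk1 (chr10:69352939-69353088, minus strand), Cdc20 (chr4:118437353-118437502, minus strand) and Kif11 (chr19:37376232-37376381, plus strand), each carry a CHR word and at least 1 CCAAT box.
Cdk1: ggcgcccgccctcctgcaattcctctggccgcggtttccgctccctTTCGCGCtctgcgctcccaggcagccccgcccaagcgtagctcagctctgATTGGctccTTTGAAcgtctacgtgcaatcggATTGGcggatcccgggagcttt
Cdc20: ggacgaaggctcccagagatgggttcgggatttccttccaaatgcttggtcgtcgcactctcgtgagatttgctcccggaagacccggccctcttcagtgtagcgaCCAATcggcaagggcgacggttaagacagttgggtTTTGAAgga
Kif11: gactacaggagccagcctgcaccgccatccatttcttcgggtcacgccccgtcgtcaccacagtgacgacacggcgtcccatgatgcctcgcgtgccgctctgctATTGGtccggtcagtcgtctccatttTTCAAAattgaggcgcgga
The replication 3, Mcm5 (chr8:75109359-75109508, plus strand), Mcm6 (chr1:128359706-128359855, minus strand) and Rrm1 (chr7:102441545-102441694, plus strand), carry CCAAT boxes and E2F-type words and no CHR word.
Mcm5: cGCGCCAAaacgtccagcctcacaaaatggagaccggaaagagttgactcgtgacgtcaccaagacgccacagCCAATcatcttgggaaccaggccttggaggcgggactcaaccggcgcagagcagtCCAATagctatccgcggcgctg
Mcm6: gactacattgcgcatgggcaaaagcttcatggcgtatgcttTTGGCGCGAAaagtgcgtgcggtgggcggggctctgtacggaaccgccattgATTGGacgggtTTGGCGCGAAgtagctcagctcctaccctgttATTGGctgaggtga
Rrm1: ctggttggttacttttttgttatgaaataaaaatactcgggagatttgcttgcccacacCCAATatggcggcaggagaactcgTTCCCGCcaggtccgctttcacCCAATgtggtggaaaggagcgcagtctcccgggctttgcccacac

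Nearly all members were abundant in every line although the cultures were confluent. Levels are TPM, the share of a gene's transcripts in a library on a fixed total, which corrects for transcript length and so allows genes to be compared. In each line, 45 or 46 of the 48 members had a mean of at least 10 TPM and 22 to 24 a mean of at least 100 TPM. The median member stood at 83.7 TPM in polyclonal WT, 103.8 in WT5 and 94.9 to 102.1 in the subclones, where the median gene above 0 had 2.75, 8.61 and 7.10 to 8.83 TPM. Its percentile among genes above 0 was 90.8 to 91.9. Summed over members, 6286 TPM (0.629% of all TPM) were found in polyclonal WT, 7524 (0.752%) in WT5 and 6909 to 7089 in the subclones. The highest members over the 28 libraries were Pcna, the sliding clamp of the replication fork, at 461 to 814 TPM, Cdk1, the mitotic kinase, at 391 to 670.4, and Mcm7, a helicase subunit, at 353 to 547.

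The D-type cyclins stood apart from this. Ccnd1, which encodes cyclin D1, had 0.18 to 1.40 TPM in all libraries, and Ccnd3 (cyclin D3) had 37.6 to 69.0. Ccnd2 was listed at 0 in all 20 subclone libraries and in 3 WT5 libraries, with 0.37 TPM in the fourth. In polyclonal WT, Ccnd2 had 0.09, 0.08, 0.09 and 0.54 TPM. Ccnd2 was therefore not tested in any comparison, and the other 47 members were tested in all of them.

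**Figure D1:**
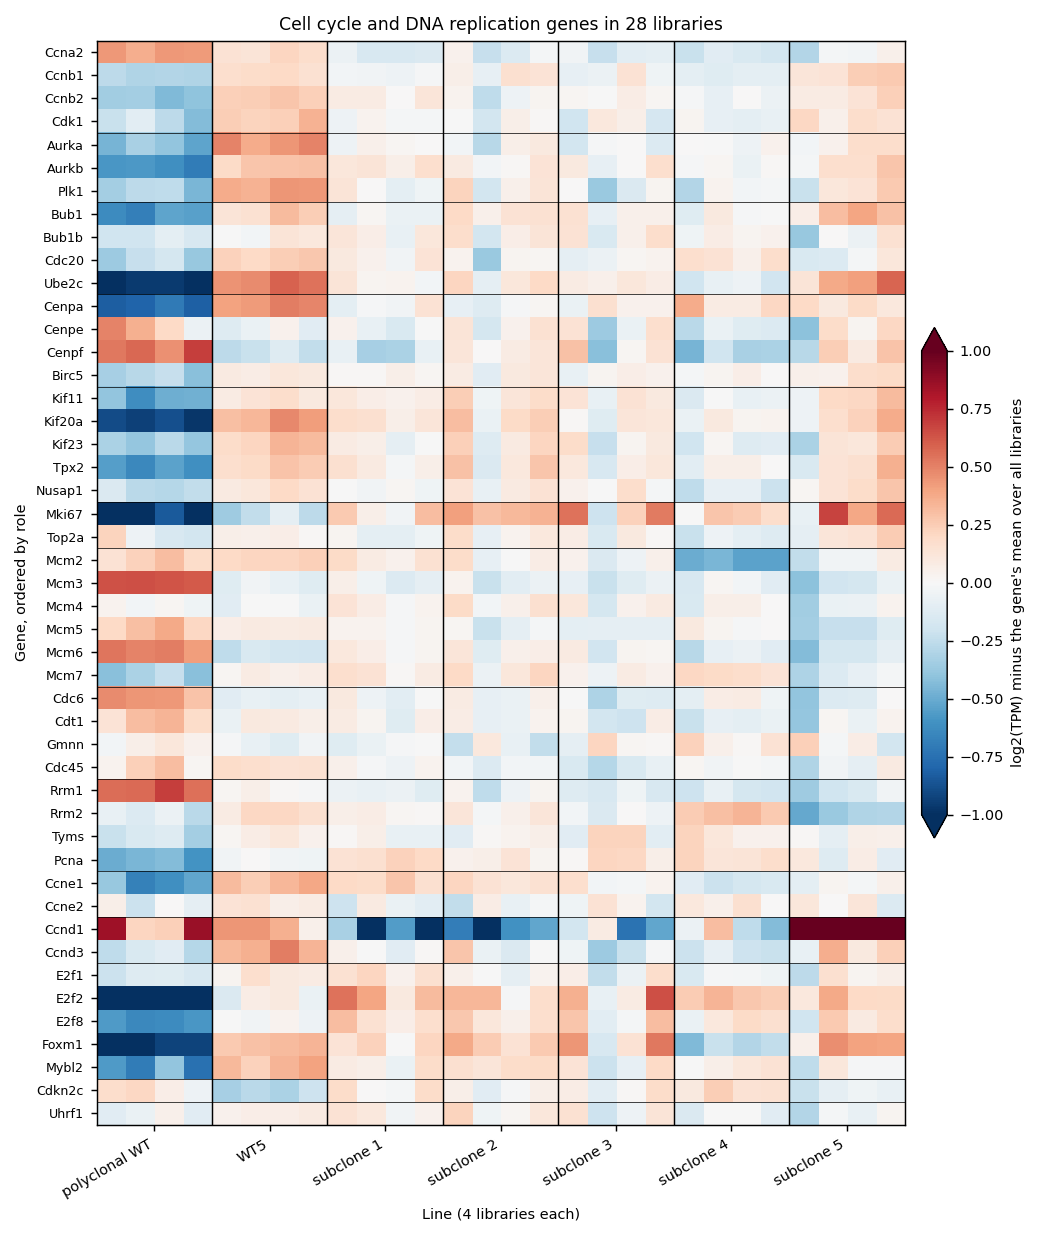
Levels of 47 members in 28 libraries, as log2(TPM) minus the gene's mean over all libraries, with genes ordered by role and lines separated by black lines. Ccnd2, listed at 0 in most libraries, is not drawn. Polyclonal WT is low (blue) for Ube2c, Cenpa, Kif20a, E2f2 and Foxm1 and high (red) for Mcm3, Mcm6 and Rrm1, and subclone 5 is high for Ccnd1, where its colour lies beyond the end of the scale.

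Over all genes, libraries of 1 line correlated with Pearson's r between 0.986 and 0.993 on log2(TPM), and no libraries were identical. Depth is unknown, since TPM keeps no read number. Of 11 epithelial and collecting duct markers, 10 had a mean of at least 1 TPM in every line, with Lhx1 below 1 in polyclonal WT and Gata3 in WT5 and the subclones. Their sum was 1882 to 2182 TPM in polyclonal WT, 3329 to 3413 in WT5 and 2103 to 2652 in the subclones, and its part in the results was not tested. Fibroblast markers summed to at most 2.14 TPM in any library, endothelial markers to at most 0.29 and leukocyte markers to 1.52 to 4.71. Mitochondrial genes took 4.21% to 5.3% of the TPM in the libraries of WT5, 5.6% to 10.2% in every subclone library and 5.02% to 10.4% in polyclonal WT, so that this share moves with the comparisons to WT5, and its part in them was not tested. Relative to the mean of its line, the median of transcripts over 5000 bases minus that of transcripts under 1500 bases was -0.34 on the log2 scale in subclone 3 replicate 2 and -0.33 in subclone 5 replicate 1, and between -0.18 and 0.23 in all other libraries. Results that rest on these 2 libraries, and on subclone 2 replicate 2, which lay apart within its line for Cdc20 and Cdc45, are given with and without them.

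Between polyclonal WT and WT5, most mitotic members were higher in WT5 and most replication members lower, relative to the median gene. The study's methods use z-scores of log2(TPM), which were computed here within each library. Groups were compared with limma over 13723 genes at an adjusted p-value below 0.01. Of the 47 members tested, 24 were higher in WT5, where 34.5% of all genes were, and 13 lower, where 30.9% were. Of the 22 mitotic members, 16 were higher and 3 lower. Of the 14 replication members, 2 were higher and 9 lower. Of the other 11 tested, 6 were higher and 1 lower. With a z-score difference above 1 in size, which 5.43% of genes reached, no member passed by limma. That is because 1 z-score unit is 8.41- to 8.81-fold here and the largest member difference was 0.426. At an unadjusted p below 0.05 by limma, 41 of 47 members differed, and the share of all genes at that threshold was not counted.

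Polyclonal cells were sequenced as single-end and WT5 as paired-end reads at another time, so that line and sequencing cannot be told apart in this comparison. All genes shifted by a median of 0.24 on the log2 scale toward WT5, and folds between these lines are therefore given relative to the median gene. Past a log2 difference of 1 on that scale, which 23.2% of all genes exceeded, were 6 members, namely Ube2c, Kif20a, Foxm1, E2f2 and Cenpa upward and Cenpf downward. The median over members was 0.16 on the log2 scale.

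The mitotic machinery led the increase. Ube2c, the ubiquitin-conjugating enzyme of the anaphase-promoting complex, had 156, 162, 162 and 154 TPM in polyclonal WT and 428, 437, 472 and 458 in WT5. The lines did not overlap, and relative to the median gene the level of Ube2c was 2.39-fold that of polyclonal WT (z-score difference 0.426 ± 0.0124 (SE), limma adjusted p = 7.57e-08). Kif20a, a kinesin of cytokinesis, had 36.3, 35.2, 36.7 and 34.4 TPM in polyclonal WT and 82.9, 85.0, 94.2 and 89.9 in WT5. Each WT5 library of Kif20a was above every polyclonal one, at 2.08-fold relative to the median gene (z-score difference 0.355 ± 0.0139, limma adjusted p = 3.27e-07). Cenpa, the histone variant that marks centromeres, had 132, 135, 144 and 133 TPM in polyclonal WT and 311, 316, 334 and 329 in WT5. That was 2.01-fold relative to the median gene (limma adjusted p = 1.28e-07).

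Smaller increases ran through the other mitotic roles. Among mitotic kinases, Aurka rose from 41.5 to 47.6 to 77.0 to 84.1 TPM (1.55-fold relative to the median gene, limma adjusted p = 1.45e-05). Its relative Aurkb, of the chromosomal passenger complex, rose 1.55-fold and Plk1, which drives entry into mitosis, 1.40-fold. Cdk1 rose from 391 to 489.5 to 617 to 670.4 TPM, 1.21-fold, and its partners Ccnb1 and Ccnb2 (B-type cyclins) 1.17- and 1.31-fold. Bub1 of the spindle checkpoint rose 1.48-fold and Cdc20, which activates the anaphase-promoting complex, 1.21-fold. The spindle genes Tpx2, Kif11 and Kif23 rose 1.48-, 1.297- and 1.28-fold, the survivin gene Birc5 1.12-fold and Mki67, whose protein Ki-67 marks cycling cells, 1.53-fold. Bub1b, Nusap1 and Top2a did not pass the test, at 0.978-, 1.09- and 0.898-fold.

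Against this direction, 3 mitotic members fell. Cenpf, a large kinetochore protein, had 36.5, 37.7, 34.7 and 40.8 TPM in polyclonal WT and 21.04, 21.7, 23.1 and 21.4 in WT5. The lines were fully separate, and Cenpf was at 0.492-fold relative to the median gene (z-score difference -0.32 ± 0.0217, limma adjusted p = 5.6e-06). Ccna2 (cyclin A2) was at 0.711-fold, from 315 to 332 to 268 to 284 TPM. Cenpe, a kinetochore motor, was at 0.679-fold, but its libraries overlapped in TPM (34.5 to 50.9 and 32.9 to 37.1). Its call was lost without z-scores (limma adjusted p = 0.0398).

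The decrease in replication members was largest in the helicase. Mcm3 had 371, 371, 367 and 364 TPM in polyclonal WT and 219, 233, 226 and 219 in WT5. Mcm6 had 447, 435, 439 and 412 TPM in polyclonal WT and 259.7, 277, 271 and 270.5 in WT5. Both fell without overlap between the lines, relative to the median gene to 0.514-fold for Mcm3 (z-score difference -0.29 ± 0.0129, limma adjusted p = 6.23e-07) and 0.526-fold for Mcm6 (z-score difference -0.279 ± 0.0126, limma adjusted p = 6.58e-07). Mcm5 was at 0.741-fold. Mcm2 and Mcm4 passed the test as lower, at 0.844- and 0.819-fold, while their libraries overlapped in TPM. Without z-scores, the calls of Mcm2 and Mcm4 were lost (limma adjusted p = 0.993 and 0.381). The remaining subunit, Mcm7, was higher, with 353 to 402 TPM in polyclonal WT and 478 to 498 in WT5 (1.115-fold). The call of Mcm7 was lost on a median-centred scale (limma adjusted p = 0.0654), and 34.2% of the stretches of 50 bases of Mcm7 also occur in other genes.

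Of the genes that load and fire the helicase, Cdc6 fell to 0.597-fold (59.5 to 67.8 TPM against 45.1 to 46.2), its partner in loading Cdt1 to 0.736-fold and the Cdt1 inhibitor Gmnn (geminin) to 0.785-fold, relative to the median gene. Without z-scores, the calls of Cdt1 and Gmnn were lost (limma adjusted p = 0.0218 and 0.0696). Cdc45, a part of the active helicase, did not pass the test (0.853-fold, limma adjusted p = 0.0237). The subunits of ribonucleotide reductase, which makes deoxynucleotides, parted as well. Rrm1 fell to 0.568-fold, from 139 to 154 to 94.7 to 99.2 TPM (limma adjusted p = 7.38e-07). Rrm2, its small subunit, was at 1.04-fold (limma adjusted p = 0.0574) and Tyms, thymidylate synthase, at 1.02-fold, and neither passed. Pcna rose 1.17-fold, from 461 to 517 to 675 to 696 TPM.

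Among regulators, the activators of mitotic genes rose with them. Foxm1 had 34.2, 33.4, 35.9 and 36.0 TPM in polyclonal WT and 82.1, 83.8, 85.2 and 86.5 in WT5. Relative to the median gene Foxm1 was at 2.04-fold with no overlap (z-score difference 0.346 ± 0.0122, limma adjusted p = 1.94e-07). E2f2, an activating E2F, was the lowest of the 5 factors, with 4.18, 4.41, 4.18 and 4.08 TPM in polyclonal WT and 9.27, 10.8, 11.0 and 9.81 in WT5 (2.04-fold, limma adjusted p = 2.07e-06). Mybl2 rose 1.60-fold and E2f8, a repressing E2F, 1.28-fold, and E2f1 did not pass at 1.01-fold. Ccne1 (cyclin E1) rose 1.54-fold, from 11.3 to 13.9 to 21.4 to 23.7 TPM, and Ccne2 did not pass at 0.949-fold. Ccnd3 rose 1.26-fold. Cdkn2c, the CDK4/6 inhibitor p18, fell to 0.648-fold, from 115 to 137 to 94.4 to 103 TPM. Uhrf1, which reads hemimethylated DNA behind the fork, was at 0.92-fold and did not pass.

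**Figure D2:**
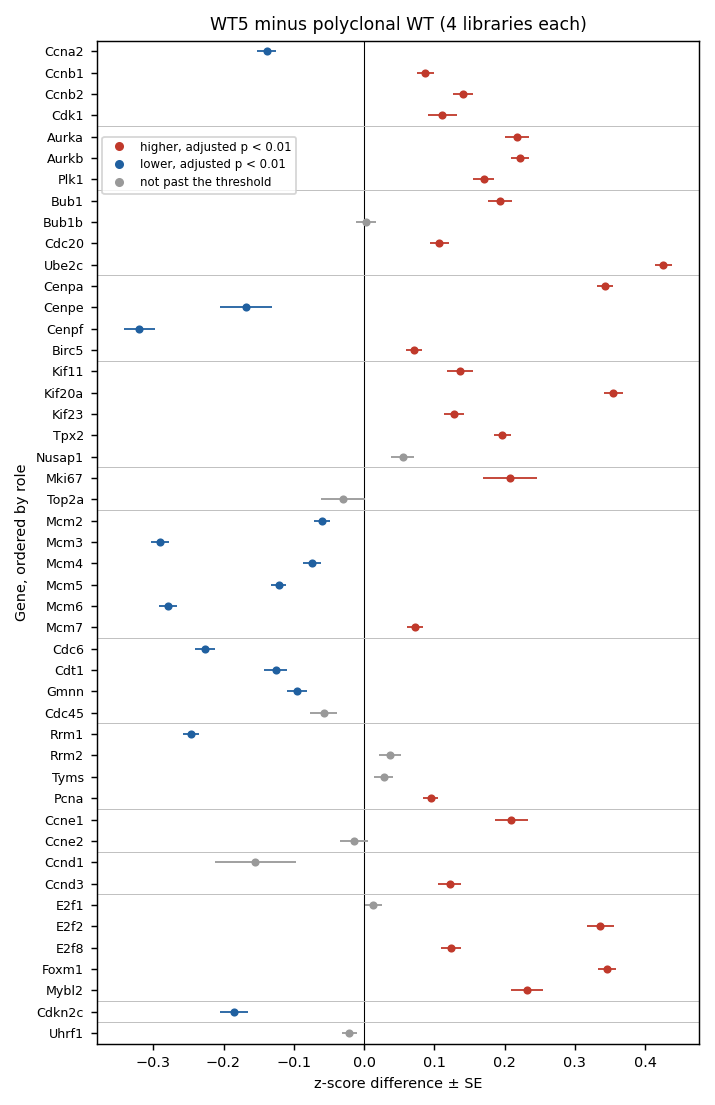
Difference in z-score between WT5 and polyclonal WT for the 47 members tested, with 4 libraries a line. Points are differences and bars their standard errors, and colour gives the call by limma at an adjusted p-value below 0.01. Mitotic members at the top lie mostly right of 0 with Ube2c farthest at 0.426, and the helicase and licensing members lie mostly left of it.

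The split by role depended in part on the scale. Without z-scores, 18 mitotic members were higher and 2 lower, but 4 replication members were higher and 5 lower, where 45.2% and 21.6% of all genes were. With log2(TPM) centred on each library's median, the counts were 14 and 3 for mitotic members and 1 and 10 for replication members (31.1% and 34.3% of all genes). Under all 3 scales 21 of the 24 higher members stayed called as higher, without Cdk1, Birc5 and Mcm7, and 8 of the 13 lower ones as lower: Ccna2, Cenpf, Mcm3, Mcm5, Mcm6, Cdc6, Rrm1 and Cdkn2c. The promoter words of these directions followed the roles. Of the higher members, 20 had a promoter window, and 14 of these held CHR letters and 6 an E2F-type word. Of the lower members, 10 had one, and 2 held CHR letters and 7 an E2F-type word.

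Read length, which differed between these lines, may bear on values through sequence shared between genes and through transcript length, and its part was not tested. At least 1 stretch of 50 bases of a member's transcripts also occurred in another gene for 33 of the 48 members. Of the 15 without such a stretch, 13 passed the test between WT5 and polyclonal WT, 9 as higher and 4 as lower. Of all 47 members tested, 24 were higher and 13 lower, and of all genes 34.5% and 30.9%. These counts do not show what shared sequence contributed. Pcna-ps2, a pseudogene sharing 31.8% of the stretches of Pcna, had 195.5 to 213 TPM in polyclonal WT and 74.7 to 79.7 in WT5, and the sum of Pcna and Pcna-ps2 was 656 to 729 TPM against 753 to 775. The value of Pcna is thus uncertain between the lines. Kif20a shares 28.2% with the neighbouring gene Cdc23, which had 29.4 to 39.1 TPM in polyclonal WT and 64.8 to 78.7 in WT5. Shared stretches also made up 42.1% of Ccnb1, 34.2% of Mcm7, 23.8% of Mybl2 and 17.8% of Ube2c, and their part in the differences was not tested. Over all genes, the log2 difference between the lines was 0.43 for transcripts over 5000 bases and 0.14 for those under 1500. With the trend on length removed, an alternative chosen after seeing the data, 14 mitotic members were higher and 3 lower, and 2 and 9 replication members (33.9% and 33.3% of all genes).

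Other genes of the pathway, 98 in all, were listed by role. Between polyclonal WT and WT5 43 were higher (43.9%, against 34.5% of all genes), 30 lower (30.6% against 30.9%) and 25 neither. Of 31 other mitotic genes, 20 were higher and 4 lower, and of 33 other origin and replisome genes 9 were higher and 14 lower. Of 10 pocket proteins and E2F partners 3 were higher and 5 lower, of 5 subunits of DREAM and MuvB 2 and 2, of 6 CDK inhibitors 3 and 1, and of 13 further CDKs and their regulators 6 and 4.

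The kinases of the D-type cyclins gave the largest differences of that list in both directions. Cdk6 had 7.09, 6.26, 7.04 and 7.50 TPM in polyclonal WT and 36.0, 30.2, 36.8 and 37.8 in WT5. Cdk4 had 1083, 1179, 1202 and 1061 TPM in polyclonal WT and 557, 589.6, 613 and 640.4 in WT5. Neither overlapped, and relative to the median gene Cdk6 was at 4.26-fold (limma adjusted p = 3.93e-07) and Cdk4 at 0.448-fold (limma adjusted p = 5.07e-07). Cdk4 remained the more abundant of the pair in every line. In the subclones Cdk4 had 475 to 817 TPM and Cdk6 17.3 to 41.9.

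**Figure D3:**
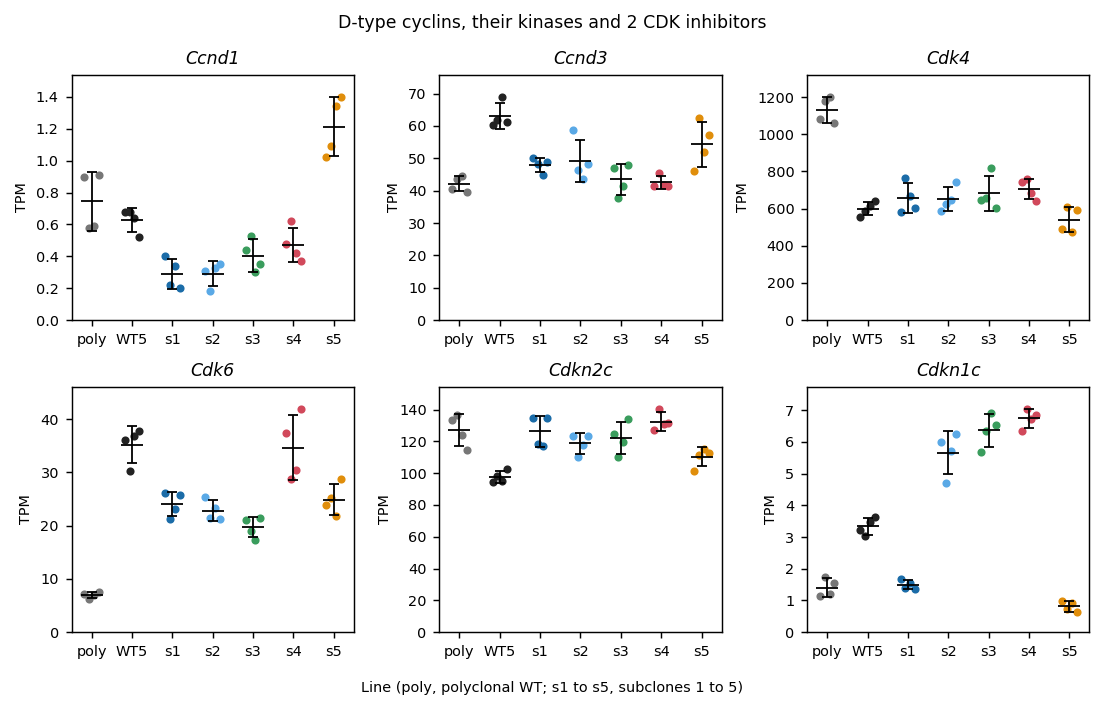
TPM of 2 D-type cyclins, the kinases Cdk4 and Cdk6 and the CDK inhibitors Cdkn2c and Cdkn1c in each library (points), with the mean and SD of the 4 libraries of a line (bars), all axes from 0. Ccnd1 is highest in subclone 5 and at most 1.40 TPM throughout, Cdk4 is highest and Cdk6 lowest in polyclonal WT, and Cdkn1c separates subclones 2, 3 and 4 from subclones 1 and 5.

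Against WT5, each subclone differed in fewer members and by less. Over 13860 genes, in subclone 1 7 members were higher and 8 lower (12.7% and 13.6% of all genes). In subclone 2 these were 10 and 4 (13.4% and 12.6%), in subclone 3 5 and 4 (8.65% and 10.9%), in subclone 4 11 and 12 (18.2% and 19.2%), and in subclone 5 7 and 2 (10.2% and 11.7%). With a z-score difference above 1 in size, no member was left by limma in any subclone, where 0.152%, 0.144%, 0.173%, 0.202% and 0.173% of all genes were. At an unadjusted p below 0.05, 21 to 31 members differed in a subclone, and the share of all genes at that threshold was not counted. Subclones and WT5 stand in separate tables, the read length of the subclones was not stated, and the 5 comparisons share the WT5 libraries, so that a difference common to all subclones cannot be told apart from a difference between tables.

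Members shared a side in TPM more often than they shared a call. All 20 subclone libraries lay below all 4 WT5 libraries for 10 of the 47 members, where this held for 12.3% of all genes, and above them for 0 members, where it held for 3.38%. The 10 were the mitotic members Ccna2, Ccnb2, Cdk1, Aurka, Plk1, Cdc20 and Cenpa, the replication members Mcm2 and Cdc45, and Mybl2. The gap was narrow for some of them, with at most 607 TPM in the subclones and at least 617 in WT5 for Cdk1, and 116.87 and 116.92 for Ccnb2. It was wider for Ccna2 (254 and 268) and Aurka (67.3 and 77.0). The median gene was lower in each subclone than in WT5 as well, with a difference of -0.04 to -0.10 on the log2 scale, and the mitochondrial share was higher in each.

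By the test, 2 members were called in 1 direction in all 5 subclones, Mki67 and Cdkn2c. Mki67 was higher in each, with 38.5 to 46.3 TPM in WT5 and medians that lay above this in every subclone. By library, Mki67 had 59.1, 51.4, 47.9 and 61.0 TPM in subclone 1, 65.5, 60.2, 61.6 and 62.7 in subclone 2 and 71.9, 42.8, 57.7 and 70.6 in subclone 3. In subclone 4 it had 49.2, 59.7, 58.8 and 55.7, and in subclone 5 46.9, 78.5, 64.3 and 72.8. The lowest library of Mki67 in subclone 3, replicate 2, lay within the range of WT5, and relative to the median gene its levels were 1.34- to 1.65-fold those of WT5 (limma adjusted p from 0.000122 to 0.00955). The Mki67 transcript is 10061 bases long.

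Cdkn2c was the other member higher in all 5. It had 94.4, 98.4, 95.1 and 103 TPM in WT5, 135, 119, 117 and 135 in subclone 1 and 124, 109.9, 118 and 124 in subclone 2. It had 125, 110.5, 119.8 and 134 in subclone 3, 127, 140.5, 131 and 132 in subclone 4 and 102, 112, 115 and 113 in subclone 5. Only subclone 5 overlapped with WT5, and Cdkn2c was at 1.21- to 1.42-fold (limma adjusted p from 3.17e-05 to 0.000969). In polyclonal WT it had 115 to 137 TPM. Under all 3 scales described for WT5 and polyclonal WT, Cdkn2c passed as higher in subclones 1, 2 and 4 and Mki67 in subclones 2 and 4.

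Mitotic members went both ways. In subclones 1 to 5, 1, 3, 1, 1 and 4 of the 22 were higher and 6, 3, 3, 8 and 0 lower, and in subclone 5 the 4 higher were Cenpf, Birc5, Mki67 and Top2a. Of all genes, 12.7%, 13.4%, 8.65%, 18.2% and 10.2% were higher in these subclones and 13.6%, 12.6%, 10.9%, 19.2% and 11.7% lower, so that several of these counts lie near the shares over all genes. Aurka was lower in subclones 1 to 4. It had 83.9, 77.0, 81.01 and 84.1 TPM in WT5, 57.6, 61.7, 60.5 and 59.9 in subclone 1 and 58.4, 49.1, 62.1 and 63.8 in subclone 2. It had 52.4, 59.0, 59.8 and 54.2 in subclone 3, 57.7 to 61.3 in subclone 4 and 58.6 to 67.3 in subclone 5. All 20 subclone libraries of Aurka were below WT5, and relative to the median gene it was at 0.732- to 0.763-fold in subclones 1 to 4 (limma adjusted p from 0.000481 to 0.00861) and at 0.835-fold in subclone 5, where it did not pass.

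Ube2c was lower in the same subclones 1 to 4, with 343, 319, 321 and 308 TPM in subclone 1, 365, 294, 339 and 360.4 in subclone 2, 332, 325, 339 and 329.7 in subclone 3 and 273, 298, 304 and 274 in subclone 4 against 428 to 472 in WT5. The libraries of these 4 did not overlap with WT5, and Ube2c was at 0.668- to 0.783-fold (limma adjusted p from 0.000221 to 0.00927). Plk1 was lower in subclones 1, 3 and 4, with 75.9, 69.4, 64.8 and 67.1 TPM in subclone 1, 69.6, 53.5, 62.7 and 70.8 in subclone 3 and 56.5, 70.9, 68.0 and 68.5 in subclone 4 against 88.1 to 94.2 in WT5. Ccnd3 was lower in the same 3, and had 49.97, 48.2, 44.8 and 48.7 TPM in subclone 1, 47.0, 37.6, 41.4 and 48.0 in subclone 3 and 41.6, 45.6, 41.9 and 41.4 in subclone 4 against 60.4 to 69.0 in WT5. Cenpa was lower in subclones 1 and 2, with 219.7, 232, 229 and 259 and 221, 215, 233 and 238 TPM against 311 to 334.

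Replication members that passed were mostly higher in subclones 1 to 4 by z-score, with 4, 5, 3 and 8 of 14 higher and 0, 0, 0 and 1 lower, and 0 and 1 in subclone 5. The shares of all genes are those given beside the mitotic members, at 8.65% to 18.2% higher and 10.9% to 19.2% lower. Pcna was higher in subclones 1 to 4, with 770.1, 776, 814 and 799 TPM in subclone 1, 719, 723, 765 and 711 in subclone 2, 703, 808, 805 and 725 in subclone 3 and 814, 755, 762 and 785 in subclone 4, where WT5 had 675 to 696. All these libraries were above WT5, by 1.11- to 1.19-fold relative to the median gene. Mcm6 was higher in the same 4, with 333, 323, 307 and 315 TPM in subclone 1 and 335, 284, 319 and 324 in subclone 2 against 259.7 to 277 in WT5 (1.22- and 1.21-fold). In subclones 3 and 4 its libraries, at 270.4 to 328 and 255 to 297 TPM, overlapped with WT5 (1.20- and 1.09-fold), and only the call in subclone 1 held under all 3 scales. Mcm7 was also higher in subclones 1 to 4 by z-score, at only 1.04- to 1.14-fold, and in subclone 3 its mean TPM was below that of WT5 (0.982-fold).

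These upward calls rested on the scale more than the downward ones. Over the genes above 0 in all libraries, the SD of log2(TPM) was 2.86 to 2.88 in WT5 and 2.71 to 2.84 in the subclones, so that a gene well above the mean has a higher z-score in a subclone at an equal TPM. Without z-scores, 3 members were higher and 14 lower in subclone 1, 3 and 6 in subclone 2, 0 and 8 in subclone 3, 4 and 20 in subclone 4, and 1 and 5 in subclone 5. All genes moved with the scale, and those higher and lower were then 9.23% and 16.4%, 7.29% and 13.8%, 4.65% and 11.8%, 13.4% and 23.6%, and 4.68% and 11.6%. On the median-centred scale the members' counts were 6 and 13, 7 and 8, 3 and 4, 7 and 14, and 5 and 3. Of all genes, 12.1% and 14.3%, 13.2% and 14.5%, 8.88% and 9.74%, 19.9% and 17.2%, and 10.9% and 12.1% were called on it. Without the 3 libraries named above, an alternative chosen after seeing the data, 10 members were higher and 5 lower in subclone 2, 8 and 5 in subclone 3, and 10 and 2 in subclone 5 (11.3% and 10.3%, 9.54% and 10.8%, and 12.5% and 12.4% of all genes). Called under all 3 scales were 3, 3, 0, 4 and 1 members as higher in subclones 1 to 5, and 8, 4, 3, 12 and 1 as lower.

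Ccnd1 went both ways. Against 0.68, 0.68, 0.64 and 0.52 TPM in WT5, it was lower in subclone 1 at 0.4, 0.22, 0.34 and 0.2 and in subclone 2 at 0.31, 0.18, 0.33 and 0.35 TPM. In subclone 5 it was higher, at 1.02, 1.09, 1.34 and 1.40 TPM. The fold relative to the median gene was 0.456, 0.469 and 2.05 in these subclones (limma adjusted p = 0.00782, 0.00366 and 0.00138). None of the 3 overlapped with WT5, though no library exceeded 1.40 TPM. Rrm2 was the other such member, higher in subclone 4 and lower in subclone 5.

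Subclone 4 differed from WT5 in the most members, and in the most genes at large (18.2% higher and 19.2% lower). Of its mitotic members 1 was higher and 8 lower, and of its replication members 8 were higher and 1 lower. Of the 31 other mitotic genes 8 were higher and 8 lower, and of the 33 other origin and replisome genes 16 and 0. Among the higher replication members only Pcna held under all 3 scales. The lower replication member was Mcm2, with 136, 139, 132 and 132 TPM against 220.2, 222, 222 and 226 in WT5 (0.633-fold, limma adjusted p = 1.16e-05). Foxm1 was lower as well, with 50.3, 58.5, 55.9 and 57.6 TPM against 82.1, 83.8, 85.2 and 86.5 (0.687-fold, limma adjusted p = 0.000129). In subclone 5, Rrm2 had 162, 179, 187 and 188 TPM against 245, 267, 266 and 258 in WT5 (0.74-fold, limma adjusted p = 0.000774). Ccne1 was lower there too, with 16.9, 18.5, 17.9 and 18.8 TPM against 22.6, 21.4, 22.8 and 23.7, and Cenpf higher, with 20.9, 30.1, 26.9 and 30.8 against 21.04, 21.7, 23.1 and 21.4, where the lowest library of subclone 5 was below all of WT5.

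Among the 5 subclones, which share 1 table, a minority of the members differed, and those that did mostly had subclones 4 and 5 at their ends. By limma's F-test over 14031 genes, 17 of the 47 members passed (36.2%), where 24.6% of all genes did. The median range between the highest and the lowest subclone was 0.20 on the log2 scale over members and 0.29 over all genes, and of the 17 only Ccnd1 had a range above 1. Of these 17, subclone 5 was the highest for 11 and the lowest for 4, and subclone 4 the highest for 4 and the lowest for 10. These 2 subclones stood out over all genes as well. Against the mean of the other 4, 8.62% of all genes were higher and 9.77% lower in subclone 4, and 6.98% and 7.55% in subclone 5. In subclones 1 to 3 these shares were 1.76% to 3.17%. How often each subclone was at an end over all genes was not counted.

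Ordered by adjusted p, the first 5 were Rrm2, Mcm2, Ube2c, Bub1 and Ccnd1. Rrm2 had 241, 243, 234 and 232 TPM in subclone 1, 251, 228, 239 and 251 in subclone 2 and 227, 209, 232 and 223 in subclone 3. It had 275, 285, 293 and 277 in subclone 4 and 162, 179, 187 and 188 in subclone 5. Every library of subclone 4 was above, and every library of subclone 5 below, all others, subclone 2 overlapped with both subclones 1 and 3 in between, and the ends were 1.58-fold apart (limma adjusted p = 3.24e-09). Mcm2 had 218, 202, 197 and 213 TPM in subclone 1, 217, 181, 191 and 201 in subclone 2 and 197, 173, 185 and 198 in subclone 3. It had 136, 139, 132 and 132 in subclone 4 and 161, 186, 187 and 203 in subclone 5. Subclone 4 alone stood apart, the other 4 overlapped, and the ends were 1.54-fold apart (limma adjusted p = 7.24e-08).

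Ube2c, given above for subclones 1 to 4, had 344, 407, 416 and 469 TPM in subclone 5, so that subclone 5 was the highest with 1 library in the range of the others (1.42-fold between ends, limma adjusted p = 1.62e-05). Bub1 had 48.8, 52.7, 49.7 and 49.8 TPM in subclone 1, 59.9, 54.0, 57.5 and 58.0 in subclone 2 and 57.9, 49.2, 53.8 and 54.0 in subclone 3. It had 47.8, 55.6, 51.5 and 51.9 in subclone 4 and 54.5, 64.3, 68.5 and 63.8 in subclone 5. Ordered by mean Bub1 level, as subclones 1, 4, 3, 2 and 5, all neighbours overlapped, and the ends, subclones 1 and 5, were 1.25-fold apart without overlap (limma adjusted p = 5.18e-05). Ccnd1 had 0.44, 0.53, 0.3 and 0.35 TPM in subclone 3 and 0.48, 0.62, 0.42 and 0.37 in subclone 4, so that, with the values of subclones 1, 2 and 5 above, subclone 5 lay apart from 4 lines that overlapped with their neighbours (4.32-fold between ends, limma adjusted p = 6.95e-05).

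**Figure D4:**
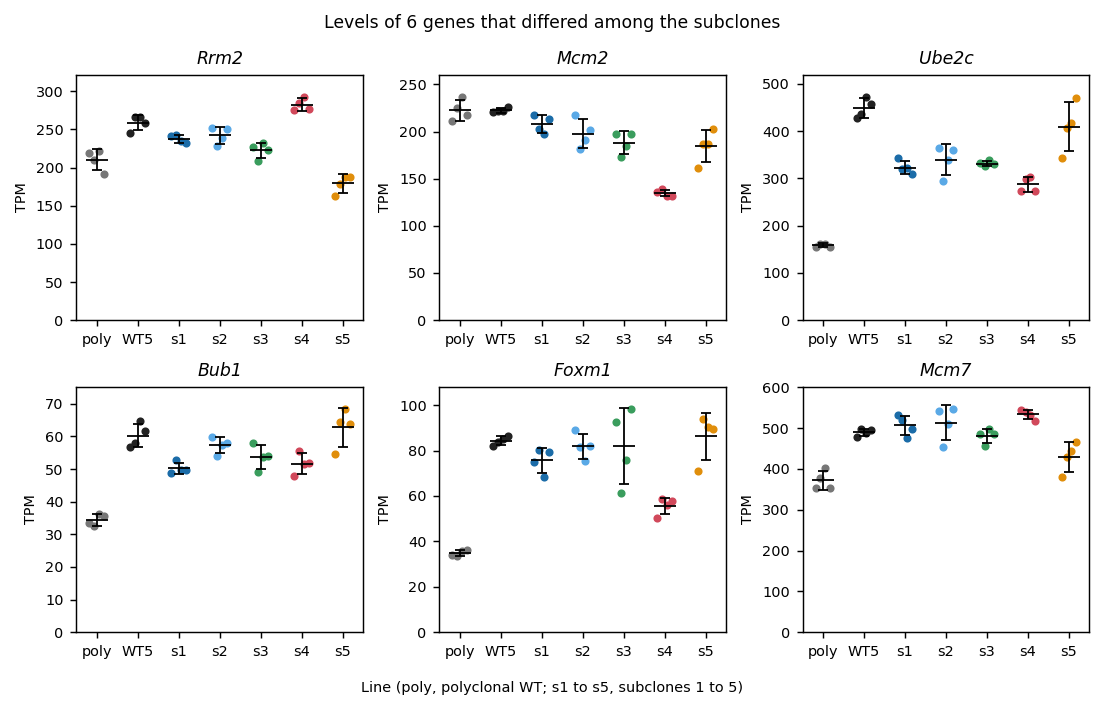
TPM of Rrm2, Mcm2, Ube2c, Bub1, Foxm1 and Mcm7 in each library (points) with the mean and SD of 4 libraries a line (bars), all axes from 0. Rrm2 is highest in subclone 4 and lowest of the subclones in subclone 5, while Mcm2 and Foxm1 are lowest of the subclones in subclone 4.

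Compared with the mean of the other 4 subclones, subclones 1, 2 and 3 stood out in at most 2 members. Subclone 1 had Mcm2 higher and Bub1 lower, where 2.6% and 1.76% of all genes were higher and lower. Subclone 2 had Mcm2 higher and none lower (3.17% and 2.78%). Subclone 3 had none in either direction by limma (2.01% and 2.84%), with 5 members at an unadjusted p below 0.05 and 1 at an adjusted p below 0.05. The shares of all genes at these 2 looser thresholds were not counted. Mcm2 is the member that was low in subclone 4, which enters the mean of the others for each of them.

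Subclone 4 had 4 members higher and 7 lower than the other subclones (8.62% and 9.77% of all genes). Rrm2 was higher, at 1.29-fold relative to the median gene (z-score difference 0.13 ± 0.00871, limma adjusted p = 5.91e-09), and so were Mcm7 (1.11-fold), Mcm5 (1.09-fold) and Cdkn2c (1.11-fold). Mcm7 had 546, 539, 532 and 518 TPM in subclone 4, and 454 to 547 in subclones 1 to 3. Foxm1 was the lowest by z-score, with 50.3 to 58.5 TPM where the other subclones had 61.3 to 98.4 (0.684-fold, z-score difference -0.179 ± 0.0249, limma adjusted p = 3.17e-05), without overlap. Mcm2 was at 0.693-fold (limma adjusted p = 4.84e-09). Ccne1, with 16.7, 15.6, 16.0 and 16.3 TPM in subclone 4 and 16.9 to 21.9 in the others, was at 0.831-fold. Cenpf had 18.3, 22.1, 20.2 and 20.3 TPM in subclone 4 and 18.9 to 31.0 in the others, with overlap (0.799-fold). Ube2c, Nusap1, a microtubule-bundling protein, and Kif11 were lower by smaller amounts (0.821-, 0.855- and 0.878-fold).

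Subclone 5 had 11 members higher and 5 lower (6.98% and 7.55% of all genes), and these member calls split by role. Few of the other genes of the pathway were called with them. Of the 31 other mitotic genes, 1 was higher and 0 lower, and of the 33 other origin and replisome genes 1 and 3. Of the mitotic members 9 were higher and none lower by limma: Ube2c, Bub1, Ccnb1, Cdk1, Nusap1, Ccnb2, Top2a, Kif11 and Aurkb. Of the replication members none was higher and 4 lower: Rrm2, Mcm7, Mcm6 and Mcm5. The D-type cyclins Ccnd1 and Ccnd3 were higher and Cdkn2c, the inhibitor of their kinases, lower. The sizes were 1.09-fold (Aurkb) to 1.303-fold (Ube2c, limma adjusted p = 8.39e-06) for the mitotic members, relative to the median gene. Rrm2 was at 0.746-fold (z-score difference -0.141 ± 0.00871, limma adjusted p = 5.24e-09). Ccnd1 was at 3.55-fold (z-score difference 0.609 ± 0.0749, limma adjusted p = 1.38e-05).

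The helicase subunits of subclone 5 were lower by less. Mcm7 had 379.9, 429.8, 445 and 465 TPM against 454 to 547 in the other subclones (0.864-fold, limma adjusted p = 7.83e-05). Mcm6 had 228, 273, 274 and 289 against 255 to 335 (0.889-fold), and Ccnd3 had 46.0, 62.3, 51.8 and 57.2 against 37.6 to 58.7 (1.21-fold). For all 3 the libraries of subclone 5 overlapped with those of the others, and replicate 1 of subclone 5 was the lowest of its line. Of the 11 higher and 5 lower members, Ccnb1, Bub1, Ube2c and Ccnd1 and, downward, Mcm7 and Rrm2 passed under all 3 scales. Of the 4 and 7 of subclone 4, Rrm2 and, downward, Ube2c, Nusap1, Mcm2, Ccne1 and Foxm1 did.

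**Figure D5:**
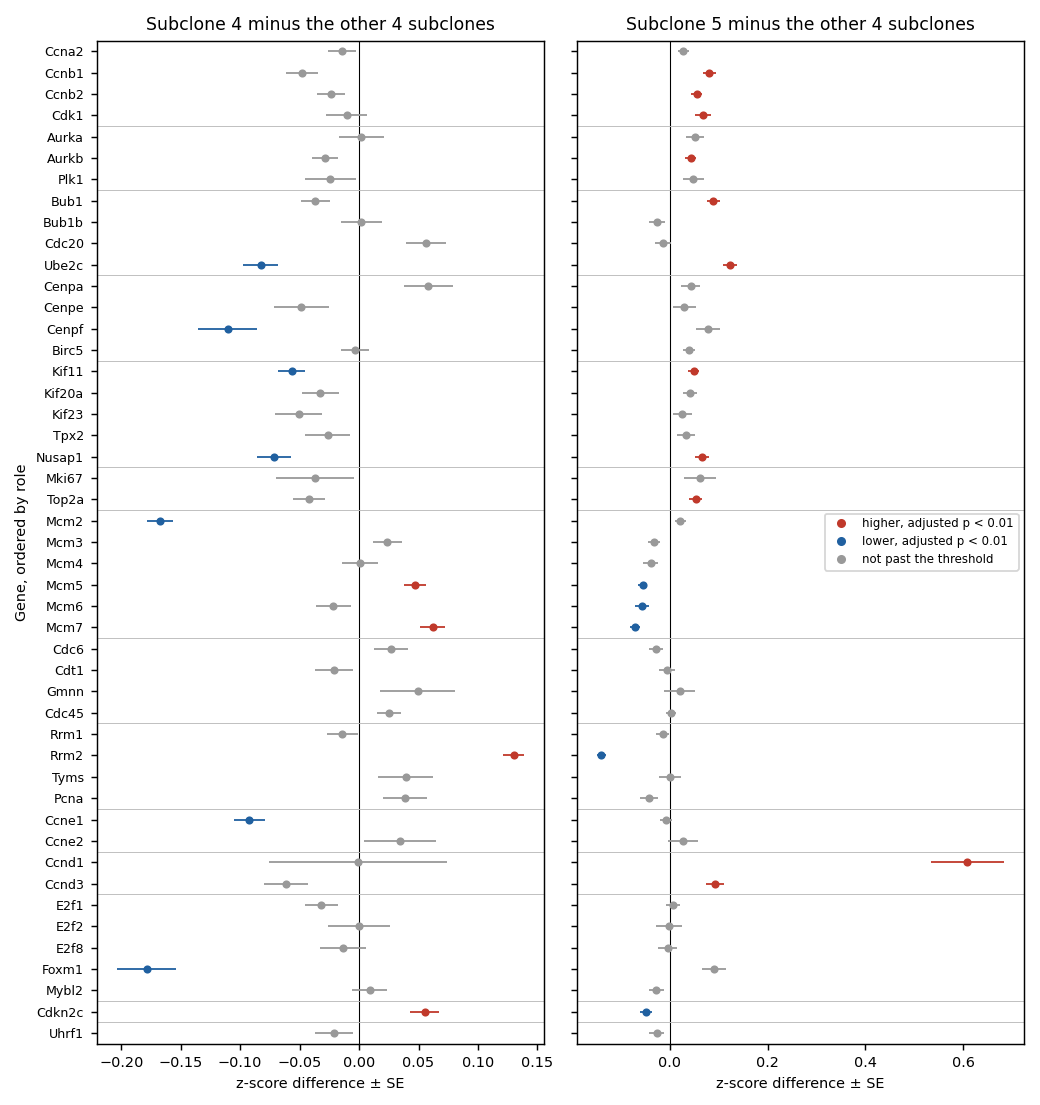
Difference in z-score of subclone 4 (left) and subclone 5 (right) from the mean of the other 4 subclones, for 47 members. Points are differences, bars standard errors, colour the call by limma at an adjusted p-value below 0.01, and the axes of the panels differ in range. Mitotic members lie left of 0 where called in subclone 4 and right of it in subclone 5, where each subclone is part of the other's reference, and Rrm2 lies at 0.13 in subclone 4 and at -0.14 in subclone 5.

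Subclones 4 and 5 each enter the mean that the other is compared with, so that a member high in the one is set lower in the other. Against the mean of subclones 1 to 3 alone, 8 members passed in subclone 4 and 10 in subclone 5, by limma over the same 14031 genes. In subclone 4 these were Rrm2 and Mcm7 as higher and Cenpf, Kif11, Nusap1, Mcm2, Ccne1 and Foxm1 as lower (7.68% and 8.65% of all genes). In subclone 5 they were Ccnb1, Ccnb2, Bub1, Ube2c, Ccnd1 and Ccnd3 as higher and Mcm5, Mcm6, Mcm7 and Rrm2 as lower (5.22% and 5.97%). No mitotic member was called in both subclones on this reference, and Rrm2 and Mcm7 were called in opposite directions, although the 2 comparisons still share subclones 1 to 3.

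The calls in subclones 4 and 5 against the other 4 were also made without the 3 libraries named above. Without them, 22 members passed the F-test, where 26.5% of all genes did. In subclone 4 mitotic members were then 1 higher and 7 lower and replication members 3 and 1, and in subclone 5 mitotic members were 8 and 0 and replication members 0 and 4, by limma (of all genes, 10.6% and 12.3% in subclone 4 and 6.86% and 7.06% in subclone 5). With the trend on transcript length removed, the counts were 0 and 5, 3 and 1 in subclone 4, and 8 and 0, 0 and 4 in subclone 5 (10.1% and 10.6%, and 8.46% and 8.78%). Without z-scores they were smaller, at 0 and 2, 1 and 1 in subclone 4 and 3 and 0, 0 and 3 in subclone 5. Of all genes, 7.22% and 5.4% were then higher and lower in subclone 4 and 3.32% and 7.06% in subclone 5. The reference of subclones 1 to 3, the omission of libraries and the removal of the trend were chosen after seeing the data.

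The inhibitor of CDKs that differed most among subclones was outside the 48 genes. Cdkn1c, which encodes p57, had 6.33, 7.04, 6.72 and 6.86 TPM in subclone 4, 5.68, 6.33, 6.91 and 6.52 in subclone 3 and 6.0, 4.69, 5.70 and 6.26 in subclone 2. It had 1.68, 1.39, 1.54 and 1.37 in subclone 1 and 0.99, 0.72, 0.93 and 0.62 in subclone 5, against 3.02 to 3.63 in WT5 and 1.13 to 1.73 in polyclonal WT. Subclones 2, 3 and 4 were above WT5 and subclones 1 and 5 below it, without overlap, and the ends were 8.41-fold apart (limma adjusted p = 3.95e-10). Of the 98 other pathway genes, 18 passed the F-test, 18.4% against 24.6% of all genes, with a median range of 0.20 on the log2 scale against 0.29. Among them E2f6, a repressing E2F, spanned 2.24-fold and Cdkn1a, which encodes p21, 1.49-fold. Compared with the other subclones, subclone 4 had 12 of the 98 higher and 4 lower, subclone 5 3 and 8, and subclones 1, 2 and 3 had 2 and 2, 2 and 2, and 1 and 1. In subclone 4, 1 of the 31 other mitotic genes was higher and 2 lower, and 4 and 0 of the 33 other origin and replisome genes.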

How the data were processed

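RNA of mIMCD-3 cells was sequenced in 28 libraries, 4 each of polyclonal WT, WT5 and 5 subclones. The authors deposited TPM per gene, from RSEM 1.3.1 after alignment to GRCm38 with STAR 2.7.3a and an Ensembl annotation. CASAVA 1.8 is named in the submitters' processing notes as well. One table holds polyclonal WT and WT5 and another the subclones, without a filter on level, and they were joined by gene identifier. TPM keeps no depth, so no counting interval is given. Symbols were matched for 45143 of 45706 identifiers.

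From these, z-scores of log2(TPM) were computed library by library, with no pseudocount, over genes above 0 in all libraries of a fit (13723 for WT5 and polyclonal WT, 13860 for WT5 and subclones, 14031 for the subclones). Two-sided tests were made by limma 3.58.1 in R 4.3.3 with Benjamini-Hochberg adjustment over all genes tested and a threshold of 0.01, after a check on simulated data. limma stands in for the unequal-variance test named in the methods, which was run as an alternative. Folds compare geometric means, divided by the median fold of all genes. The members, the other pathway genes and the roles were chosen with earlier results of these data known. All members may be named, and values of every library are given for the 3 largest differences in each direction of a comparison and the 5 lowest adjusted p among subclones. Promoter windows are from RefSeq.

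Alternatives were pseudocounts of 0.1 and 1, a mean TPM of at least 1, genes above 0 in any library, log2(TPM) without z-scores or centred on the median, a threshold of 0.05, a replicate block, added size thresholds, the unequal-variance test, 1 fit for the 24 libraries of WT5 and subclones, members without a shared stretch of 50 bases, and each library left out in turn. Removal of a trend on transcript length, the omission of 3 subclone libraries and the reference of subclones 1 to 3 for subclones 4 and 5 were chosen after seeing the data.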

Additional observations from a re-analysis of the deposited data

Results flagged for a closer look

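In 14 of 331 sets of 4 libraries (1 member in 1 line), 1 library lay so far from the other 3 that its gap, as a share of the whole range, exceeded Dixon's critical value. Chance alone marks about 1 in 20 such sets, and the marks fell on 11 libraries.

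In polyclonal WT, Ccna2 had 315 TPM in replicate 2 (others 329 to 332), Rrm1 154 in replicate 3 (139 to 141) and Ccnd2 0.54 in replicate 4 (0.08 to 0.09). In WT5, Ccnb2 had 120.3 TPM in replicate 3 (116.9 to 117.4), Cdk1 670.4 in replicate 4 (617 to 625), Aurkb 160.0 in replicate 1 (169.8 to 172) and Ccnd2 0.37 in replicate 4 (0 in the others). In subclone 1, Ccna2 had 235 TPM in replicate 1 (219 to 221), Birc5 215 in replicate 3 (208 to 209) and Mcm5 157 in replicate 3 (162 to 163). In subclone 2, replicate 2 was the low one for both Cdc20, at 103.7 TPM (136 to 138 in the others), and Cdc45, at 90.5 (97.4 to 97.6). Ccnb1 had 132 TPM in replicate 3 of subclone 3 (113 to 116), and Ccnd3 had 45.6 in replicate 2 of subclone 4 (41.4 to 41.9).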

How the results depend on the processing

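Of the 47 members tested, 37 passed between WT5 and polyclonal WT, 15, 14, 9, 23 and 9 between subclones 1 to 5 and WT5, 17 in the F-test among subclones, and 2, 1, 0, 11 and 16 for subclones 1 to 5 against the other 4. Leaving out 1 library gave 36 to 38 for WT5 and polyclonal WT, 8 to 13, 7 to 15, 3 to 13, 12 to 24 and 3 to 13 for subclones 1 to 5 against WT5, 14 to 18 for the F-test, and 0 to 4, 0 to 1, 0 to 0, 10 to 12 and 8 to 17 against the other subclones. The lowest counts against WT5 came without single libraries of WT5 (replicate 1 or 4 for subclone 1, replicate 2 for subclone 2, replicates 1, 3 or 4 for subclone 3, 3 or 4 for subclone 4, and 1 or 4 for subclone 5), the highest for subclone 3 without its replicate 2 and for subclone 5 without its replicate 1, and subclone 5 against the others fell to 9 without its replicate 2 or 3 and to 8 without its replicate 4. Without z-scores, subclone 2 had 9 against WT5, the F-test 8, and subclones 2, 4 and 5 had 0, 6 and 7 against the others, and the difference of Mcm7 between subclone 3 and WT5 reversed to -0.0267 on the log2 scale. At a threshold of 0.05 the counts were 24, 22, 19 and 19 for subclones 1, 2, 3 and 5 against WT5 and 7, 4, 1 and 17 for subclones 1 to 4 against the others. With the replicate number as a block, 33 passed between WT5 and polyclonal WT (23 higher, 10 lower), but 2, 5, 1, 14 and 1 for subclones 1 to 5 against WT5 and 0 for subclone 2 against the others; correlations of deviations between same-numbered libraries ran from -0.265 to 0.129, so the numbers do not pair the libraries. With the trend on length removed, subclone 5 had 14 against WT5 and subclones 1, 2 and 3 had 5, 2 and 1 against the others. A z-score difference above 1 left 0 in WT5 against polyclonal WT and in all 5 subclones against WT5. A log2 difference above 1, not taken relative to the median gene, left 5 for WT5 against polyclonal WT. On that measure, 1, 1, 0, 0 and 0 were left for the subclones and 1 in the F-test. Relative to the median gene, 6 were left for WT5 against polyclonal WT and 1, 1, 0, 0 and 1 for the subclones. The unequal-variance test gave 9, 4, 15 and 3 for subclones 2 to 5 against WT5, all 24 libraries in 1 fit gave 17 for subclone 3, genes above 0 in any library gave 4 for subclone 3, and the 15 members without a shared stretch held 13 of the calls between WT5 and polyclonal WT. Without the 3 subclone libraries, subclones 1 and 2 had 5 and 0 against the others, and against subclones 1 to 3 alone subclone 5 had 10. Fewer libraries or a block leave fewer degrees of freedom, and otherwise the cause was not tested. For most of these settings the share of all genes was not counted. The counts therefore show how the number of members called changes, and not how members compare with genes at large. Of 777 values of single members between WT5 and polyclonal WT under alternatives, 659 kept their call, 118 missed the threshold and 0 reversed.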
